A study of Homo sapiens with 4 samples.

Results

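The 9 genes described here encode secreted and membrane-bound matrix proteases, 1 protease receptor and protease inhibitors: MMP1, MMP3, MMP9, MMP14, PLAU, PLAUR, PLAT, TIMP1 and TIMP3. They were taken by gene symbol from the 58735 genes of the deposited count table, as genes widely treated as targets of AP-1, the dimeric transcription factor of FOS and JUN proteins named in the title of the series. Each of the 9 symbols matched 1 gene.

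Matrix metalloproteinases are zinc-dependent enzymes that cleave collagens, proteoglycans and other matrix proteins. TIMPs are small proteins that block their active site. In parallel, the plasminogen activators uPA (gene PLAU) and tPA (gene PLAT) convert plasminogen into plasmin, which degrades fibrin and can activate several metalloproteinases, and the receptor uPAR (gene PLAUR) holds uPA at the cell surface. In invasive breast cancer cells this system is known for its part in migration through matrix.

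RNA came from MDA-MB-231, a long-established cell line of human breast cancer, triple-negative and mesenchymal in form. All 4 samples carried a doxycycline-inducible TetOn-H2BeGFP reporter, a histone fused to green fluorescent protein, and all received doxycycline at 5 μg/ml for 3 days, Claret and Violet dyes, and a chase of 12 days in which dividing cells dilute each label. The 1% of cells that retained most Claret, most eGFP or most Violet were sorted separately as slow-cycling cells (libraries Claret, eGFP and Violet), and the Bulk cells were sorted without a fluorescence gate. Each group holds 1 library, so no difference below has a replicate check, and the 3 slow-cycling libraries are compared with the same Bulk library. Groups follow the sample titles. In all 4 samples the treatment field names another sort than the title, and under that field the library titled Bulk would be Claret-retaining cells and the library titled Violet the un-gated cells. Every direction against Bulk below therefore rests on the titles.

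Summed read counts ranged from 15508179 to 16976909 per library, and 0 reads allow up to 0.177 to 0.191 CPM (counts scaled to a common library total, with TMM factors). Markers other than ERBB2 matched the labelled line: VIM had 12507 to 18488 reads, CD44 5303 to 6357, CDH1 0 to 3, ESR1 3 to 7 and PGR 0. ERBB2, also listed as a low marker of this line, had 1415 to 1542 reads (8.54 to 9.06 FPKM) and did not match. Of markers of other cell types, PTPRC (immune cells) had 0 to 2 reads, PECAM1 (endothelium) 54 to 87, and DES (muscle) 3 in Bulk and 12 to 17 in the slow-cycling libraries. The mitochondrial share of reads was 4.18% for Bulk and 5.06% to 5.48% for the others. The part of these differences in the results was not tested. In sorted populations, fewer cells expressing a gene and less of its RNA per cell cannot be told apart.

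The metalloproteinases of the set share the coding stretch for the catalytic zinc site, in which 3 histidines bind zinc and a glutamate acts in catalysis. The stretches are shown because the 4 genes are related in sequence yet differed widely in level. A script located each in the longest open reading frame of the GENCODE 29 transcripts (GRCh38), and capitals mark the codons of the 3 histidines, of the glutamate and of a glycine between the second and the last histidine.
MMP1 (chr11:102795549-102795581, minus strand, exon 5 of 10): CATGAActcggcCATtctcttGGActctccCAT
MMP3 (chr11:102840535-102840567, minus strand, exon 5 of 10): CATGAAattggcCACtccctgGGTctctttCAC
MMP9 (chr20:46012453-46012485, plus strand, exon 8 of 13): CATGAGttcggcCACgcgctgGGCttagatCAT
MMP14 (chr14:22843283-22843315, plus strand, exon 5 of 10): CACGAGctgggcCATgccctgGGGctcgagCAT
Over these 33 bases, 21 to 24 were identical between any pair of the 4 genes. Of its stretches of 31 bases, MMP14 shared 0% with any other gene. MMP1 shared 4.85% and MMP3 6.25%, both in part with WTAPP1, a pseudogene on the opposite strand that had 0 reads in all 4 libraries. MMP3 also shared stretches with MMP10, a related metalloproteinase gene that had 2 to 23 reads per library. The effect of the stretches shared with MMP10 on the reads of MMP3 was not tested. MMP9 shared 13.8% with SLC12A5-AS1, an antisense gene with 1 to 7 reads.

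RefSeq promoters (GRCh38.p14), from 250 bases before to 50 bases after a gene's start, were at hand for 5 of the 9 genes: MMP14, PLAU, PLAUR, TIMP1 and TIMP3. They were searched on both strands for the AP-1 element TGANTCA, for the related cyclic AMP element TGACGTCA and for TGAGTAA, a variant of the AP-1 element. Each window with a match held 1 match, so no motifs overlapped. TGANTCA was found in PLAUR and TGAGTAA in TIMP1, and no match to the 3 motifs was found in these windows of MMP14, PLAU (with 2 start sites) and TIMP3. Of all 35116 promoters of this length, 7.71% held TGANTCA, 1.85% TGACGTCA, 2.57% TGAGTAA and 11.7% any of them. The windows with a match are shown for PLAUR, at positions -186 to -180 from the start, and TIMP1, at positions -101 to -95, with the motif in capitals. Both matches lie in an exon annotated in GENCODE 29. The upstream stretches of TIMP3 and MMP14 are shown beside them because the TIMP genes differed from Bulk in opposite directions and because MMP14 had the highest mean level of the set.
PLAUR (chr19:43670337-43670366, minus strand): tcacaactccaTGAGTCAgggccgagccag
TIMP1 (chrX:47582324-47582353, plus strand): tggtgggtggaTGAGTAAtgcatccaggaa
TIMP3 (chr22:32801455-32801700, plus strand): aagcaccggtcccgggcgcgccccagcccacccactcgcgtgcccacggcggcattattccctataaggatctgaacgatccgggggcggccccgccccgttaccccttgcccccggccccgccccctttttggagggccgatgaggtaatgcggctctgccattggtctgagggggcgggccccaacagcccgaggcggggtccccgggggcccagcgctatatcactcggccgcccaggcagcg
MMP14 (chr14:22836335-22836556, plus strand): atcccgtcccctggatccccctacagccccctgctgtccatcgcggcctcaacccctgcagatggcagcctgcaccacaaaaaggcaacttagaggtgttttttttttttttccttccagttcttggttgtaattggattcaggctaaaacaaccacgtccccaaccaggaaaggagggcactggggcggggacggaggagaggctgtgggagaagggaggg
The window of TIMP3 had a GC content of 72.7% with 31 CpG dinucleotides, that of TIMP1 65.0% with 16 and that of MMP14 55.0% with 10. A match is a description of letters, and no match says only that these letters are not in the window.

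The genes did not move in 1 direction. The collagenase gene MMP1, the tPA gene PLAT and the inhibitor gene TIMP1 were at least 2-fold higher than Bulk in all 3 slow-cycling libraries. MMP14 was higher by less than 2-fold, PLAUR was close to Bulk, and PLAU and TIMP3 were lower, past 2-fold only for TIMP3 in eGFP. MMP3 and MMP9 had at most 16 reads in any library. A mean of at least 1 CPM over the 4 libraries was met by 7 of the 9 genes, and MMP1 met it only through the slow-cycling libraries. Of these 7, 3 were at least 2-fold higher in each slow-cycling library, against 11.3% of the 14585 genes kept for Claret, 12.0% for eGFP and 11.7% for Violet. The same 3 genes were higher in all 3 libraries, which held for 8.67% of genes kept, and none was lower in all 3 (4.93% of genes kept). At least 2-fold lower were 0 of 7 in Claret (6.72% of genes kept), 1 of 7 in eGFP (7.64%) and 0 of 7 in Violet (6.92%). The median log2 ratio over the 9 genes, with MMP9 at its fitted value, was 0.58 for Claret, 0.71 for eGFP and 0.55 for Violet. On the scale log2(FPKM + 1), which understates the change of low genes, it was 0.22, 0.21 and 0.21. With MMP9 taken against 3 reads in Bulk, and left out in Claret where it has no ratio, it was 0.67, 0.71 and 0.55. Over all genes kept it was -0.01, -0.01 and 0.01. Log2 ratios carry a prior count of 2, and the interval beside each is the 95% exact one (Clopper-Pearson) for a read ratio, which covers counting error only.

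**Figure D1:**
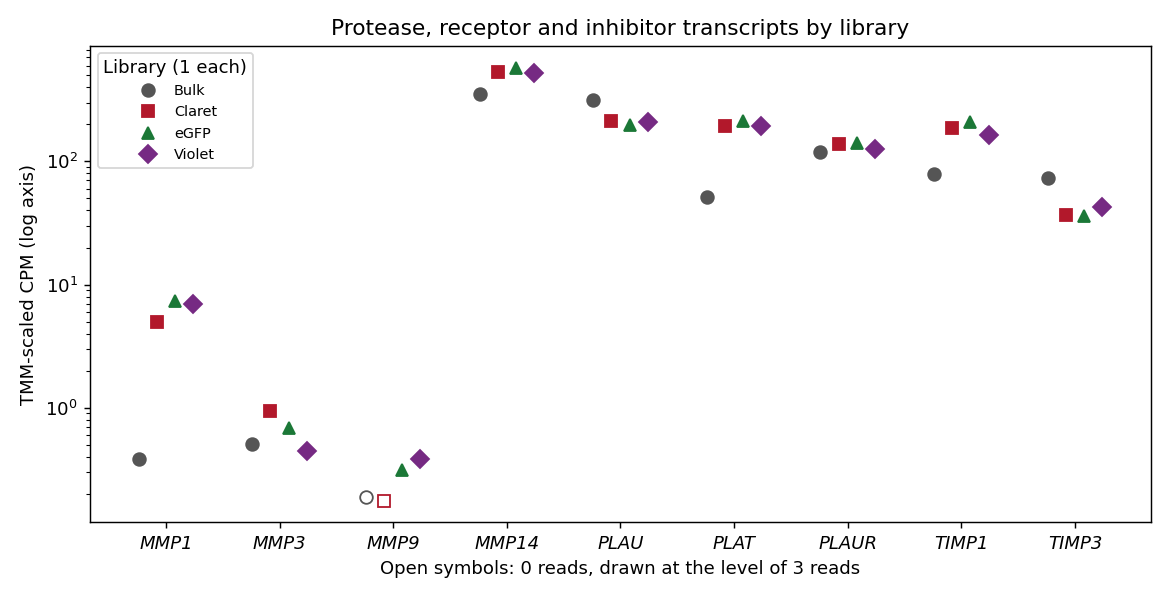
TMM-scaled CPM (log axis) of the 9 genes in the Bulk, Claret, eGFP and Violet libraries, 1 library each, with 0 reads drawn as open symbols at the level of 3 reads. MMP1, PLAT and TIMP1 lie lowest in Bulk and PLAU and TIMP3 highest in Bulk, while MMP14 spans 353 to 577 CPM.

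Among the metalloproteinases, MMP1 (interstitial collagenase, which cuts fibrillar collagen; ENSG00000196611, chromosome 11, 102789920 to 102798160) had 6 reads for Bulk, 84 for Claret, 118 for eGFP and 109 for Violet. All 3 slow-cycling libraries were far above Bulk, and Claret was the lowest of the 3. The ratios were 13.0-fold for Claret, 19.5-fold for eGFP and 18.2-fold for Violet. On the log2 scale with the prior count, MMP1 rose by 3.33 for Claret (interval 2.52 to 5.19), 3.90 for eGFP (3.12 to 5.76) and 3.80 for Violet (3.02 to 5.66). The wide intervals follow from the 6 reads in Bulk. On the scale log2(FPKM + 1) the MMP1 values were 1.55, 1.99 and 1.89. Only 0.391% of genes kept had a larger log2 ratio for Claret, 0.178% for eGFP and 0.158% for Violet. Its level per length remained low, at 0.196 FPKM in Bulk and 2.51, 3.75 and 3.45 FPKM in Claret, eGFP and Violet.

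MMP14 (MT1-MMP, a membrane-anchored collagenase that also activates the pro-form of MMP2; ENSG00000157227, chromosome 14, 22836557 to 22849027) was the most abundant metalloproteinase transcript of the set. It had 5556 reads for Bulk, 8954 for Claret, 9179 for eGFP and 8149 for Violet. Every slow-cycling library was above Bulk, by log2 ratios of 0.58 (0.53 to 0.63), 0.71 (0.66 to 0.76) and 0.55 (0.50 to 0.60). None of these reached 2-fold, and 21.5% of genes kept had a larger ratio for Claret, 18.4% for eGFP and 23.3% for Violet. Its level was 80.1 FPKM in Bulk and 118, 129 and 114 FPKM in the others, and by mean FPKM it ranked 240 among 12480 protein-coding genes kept. MMP14 held 99.4% of the summed FPKM of the 4 metalloproteinases in Bulk and 96.8% to 97.5% in the slow-cycling libraries.

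MMP3 (stromelysin-1, which cleaves proteoglycans and activates other pro-metalloproteinases; ENSG00000149968, chromosome 11, 102835801 to 102843803) had 8 reads for Bulk, 16 for Claret, 11 for eGFP and 7 for Violet. The libraries overlapped within counting error, with log2 ratios of 0.75 (-0.42 to 2.32), 0.37 (-1.0 to 1.96) and -0.15 (-1.89 to 1.47), so that a difference was not detectable at this depth. MMP9 (gelatinase B, which degrades type IV collagen; ENSG00000100985, chromosome 20, 46008908 to 46016561) had 0 reads in Bulk and Claret, 5 in eGFP and 6 in Violet. With Bulk set at 3 reads the ratio was 1.65-fold in eGFP and 2.0-fold in Violet, with the 5 and 6 reads taken as exact. On the log2 scale the interval for 0 reads in Bulk began at -0.14 in eGFP, and so included 0, and at 0.24 in Violet. Between Claret and Bulk MMP9 has no ratio. SLC12A5-AS1, which overlaps MMP9 on the opposite strand, had 1 read for Bulk, 3 for Claret, 4 for eGFP and 7 for Violet. The effect of this overlap on the reads of MMP9 was not tested.

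The plasminogen activators differed from Bulk in opposite directions. PLAT (tPA; ENSG00000104368, chromosome 8, 42175233 to 42207724) had 812 reads for Bulk, 3289 for Claret, 3372 for eGFP and 3077 for Violet. The 3 slow-cycling libraries lay close together and about equally far above Bulk, at 3.76-fold, 4.12-fold and 3.79-fold. PLAT rose by 1.91 (1.80 to 2.02), 2.04 (1.93 to 2.15) and 1.92 (1.81 to 2.04) on the log2 scale, and 2.76% to 3.15% of genes kept had a larger ratio. PLAU (uPA; ENSG00000122861, chromosome 10, 73909177 to 73917497) had 5003 reads for Bulk, 3642 for Claret, 3164 for eGFP and 3290 for Violet. Bulk was the highest library, and the log2 ratios were -0.57 (-0.63 to -0.50), -0.67 (-0.74 to -0.61) and -0.60 (-0.67 to -0.54), short of 2-fold in each. Of genes kept, 18.2%, 15.4% and 16.7% had a lower ratio. PLAU overlaps C10orf55 on the opposite strand, and 24.1% of its stretches of 31 bases occur in that gene. C10orf55 had 17 to 33 reads. Whether counting used strand is not given in the sources used here.

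Within a library, the ratio of PLAU to PLAT does not depend on library scaling. Per length it was 13.8 in Bulk (interval 12.8 to 14.9), 2.48 for Claret (2.37 to 2.60), 2.11 for eGFP (2.0 to 2.21) and 2.40 for Violet (2.28 to 2.52). PLAU thus remained the more abundant activator transcript in all 4 libraries, while PLAT went from 6.75% of the summed FPKM of both genes in Bulk to 28.7%, 32.2% and 29.4%. That sum itself was 117 FPKM in Bulk and 102, 99.0 and 98.4 FPKM in the slow-cycling libraries.

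PLAUR (uPAR, a surface receptor anchored by a lipid; ENSG00000011422, chromosome 19, 43646095 to 43670547) had 1878 reads for Bulk, 2331 for Claret, 2237 for eGFP and 1980 for Violet. The log2 ratios were 0.20 (0.12 to 0.29), 0.24 (0.15 to 0.33) and 0.08 (-0.01 to 0.17), and the Violet interval included 0. For PLAUR, 37.4% of genes kept had a larger ratio in Claret, so it lay in the middle of the distribution. Per length, PLAT was below its level by a ratio of 0.291 in Bulk and about equal to it in the slow-cycling libraries, with ratios of 0.950 (0.901 to 1.002), 1.02 (0.962 to 1.07) and 1.05 (0.989 to 1.11).

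**Figure D2:**
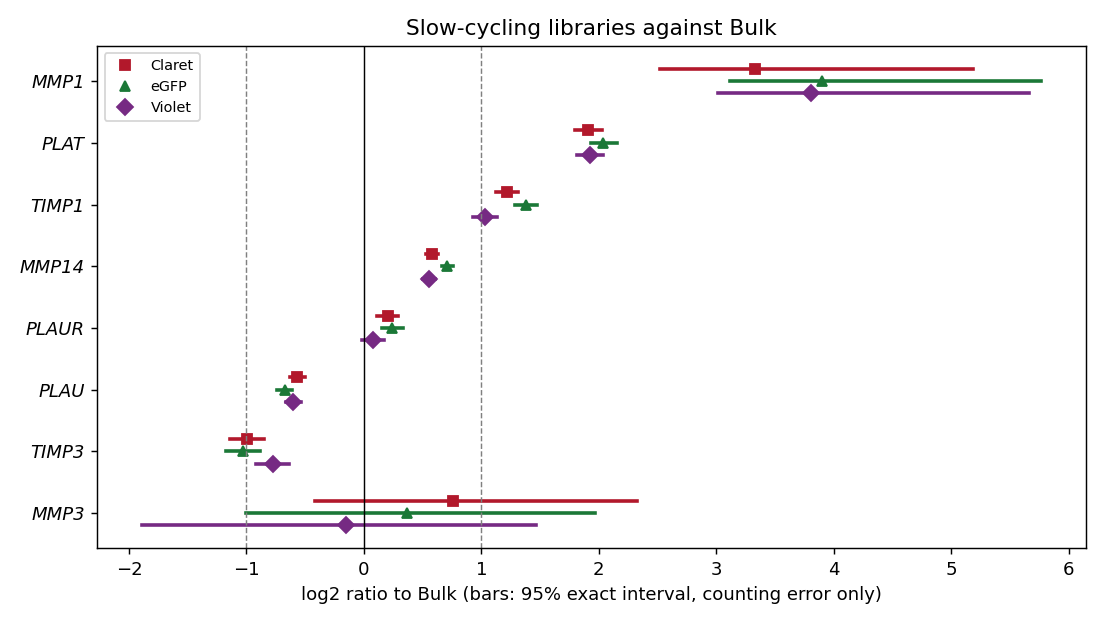
Log2 ratio to Bulk of 8 of the genes in Claret, eGFP and Violet, with 95% exact intervals for counting error and dashed lines at 2-fold. MMP9 is left out because Bulk had 0 reads; MMP1, PLAT and TIMP1 lie to the right of 1, and TIMP3 lies near -1.

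The inhibitors also parted. TIMP1 (a secreted inhibitor of most metalloproteinases; ENSG00000102265, chromosome X, 47582313 to 47586789) had 1256 reads for Bulk, 3144 for Claret, 3292 for eGFP and 2563 for Violet. Bulk was below all 3, and Violet was the lowest of the slow-cycling libraries. TIMP1 rose by 1.21 (1.12 to 1.31), 1.38 (1.28 to 1.47) and 1.03 (0.93 to 1.13), or 2.32-fold, 2.60-fold and 2.04-fold. In Violet it is at the edge of 2-fold, and it was at 0.95 after a correction for GC content and at 0.97 on the scale log2(FPKM + 1). TIMP3 (an inhibitor that binds to the matrix and also blocks ADAM proteases; ENSG00000100234, chromosome 22, 32801701 to 32863043) had 1148 reads for Bulk, 621 for Claret, 568 for eGFP and 670 for Violet. Its log2 ratios were -0.99 (-1.14 to -0.85), -1.03 (-1.18 to -0.88) and -0.77 (-0.92 to -0.64), of which the eGFP value alone was past 2-fold. With library-size scaling that value was -0.998, and with a filter at 10 CPM it was -0.95, both short of 2-fold. TIMP1 lies within the span of SYN1 and TIMP3 within that of SYN3, both on the opposite strand, and those genes had 0 to 2 reads.

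Per length, TIMP1 exceeded TIMP3 by 3.27-fold in Bulk (3.01 to 3.54), 15.1-fold for Claret (13.9 to 16.5), 17.3-fold for eGFP (15.8 to 19.0) and 11.4-fold for Violet (10.5 to 12.5). The summed FPKM of both inhibitors was 68.5 in Bulk, 128 for Claret, 141 for eGFP and 113 for Violet, and the share of TIMP3 in it went from 23.4% to 6.20%, 5.46% and 8.05%. TIMP2, which forms a complex with MT1-MMP, was near Bulk with log2 ratios of 0.15, 0.20 and 0.22. It was the more abundant inhibitor relative to TIMP1 in Bulk, where the ratio of TIMP1 to TIMP2 per length was 0.788 (0.741 to 0.837). In the slow-cycling libraries the order was turned, with ratios of 1.65, 1.78 and 1.39.

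MMP14 and TIMP1 were both above Bulk, TIMP1 by more. Their ratio per length was 1.53 in Bulk (1.44 to 1.62), 0.983 for Claret (0.944 to 1.02), 0.963 for eGFP (0.925 to 1.002) and 1.10 for Violet (1.05 to 1.15). The intervals in Claret and eGFP include 1. The order of the set by FPKM in Bulk was PLAU, MMP14, TIMP1, PLAUR, TIMP3 and PLAT, with MMP3, MMP1 and MMP9 under 1 FPKM. In the slow-cycling libraries MMP14 and TIMP1 led, PLAU followed at 67.1 to 72.7 FPKM, PLAUR and PLAT did not differ beyond their intervals, and TIMP3 followed at 7.72 to 9.07 FPKM.

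**Figure D3:**
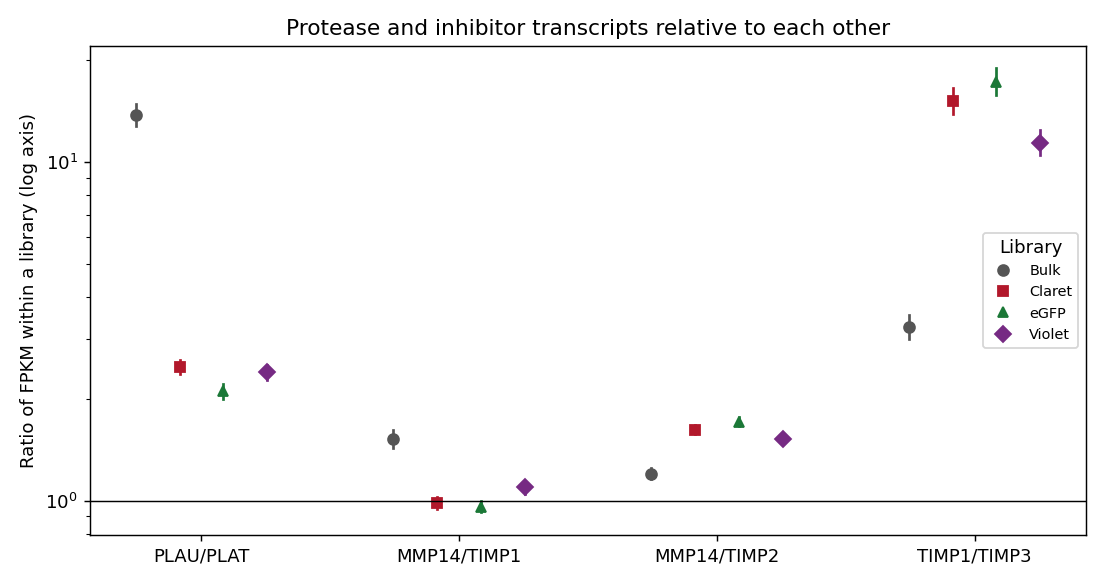
Ratios of FPKM between pairs of protease and inhibitor genes within each library (log axis, bars are 95% exact intervals for counting error, the line marks 1). PLAU to PLAT is 13.8 in Bulk and between 2.11 and 2.48 in the others, and TIMP1 to TIMP3 is 3.27 in Bulk and between 11.4 and 17.3 in the others.

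None of the 7 genes kept differed by 2-fold in any of the 3 pairs, in either direction. Of genes kept, 0.501% were higher and 0.644% lower in Claret than in eGFP, 0.329% and 0.727% in Claret than in Violet, and 0.377% and 0.912% in eGFP than in Violet. MMP1 was lower in Claret than in eGFP by a log2 ratio of -0.57 (-1.01 to -0.17) and than in Violet by -0.47 (-0.91 to -0.06). TIMP1 was higher in eGFP than in Violet by 0.35 (0.27 to 0.42), with 6.34% of genes kept above it. TIMP3 was lower in eGFP than in Violet by -0.25 (-0.42 to -0.09). PLAUR was higher in eGFP than in Violet by 0.16 (0.07 to 0.25), more than its log2 ratio of Violet to Bulk. PLAT, MMP14, PLAUR and PLAU differed by at most 0.16 in size between any pair.

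Of the 3 slow-cycling libraries, eGFP was the farthest from Bulk for all 7 genes kept, higher for the 5 that were above Bulk and lower for PLAU and TIMP3. The same held for 38.0% of all genes kept, against 28.0% for Claret and 34.0% for Violet. The 7 values share the Bulk and eGFP libraries. For 4 of the 7 the eGFP value differed from the next one by no more than counting error. These were PLAUR and TIMP3, with log2 ratios of Claret to eGFP of -0.04 (-0.12 to 0.05) and 0.03 (-0.13 to 0.20), and MMP1 and PLAU, with log2 ratios of eGFP to Violet of 0.10 (-0.29 to 0.49) and -0.07 (-0.14 to 0.0008).

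**Figure D4:**
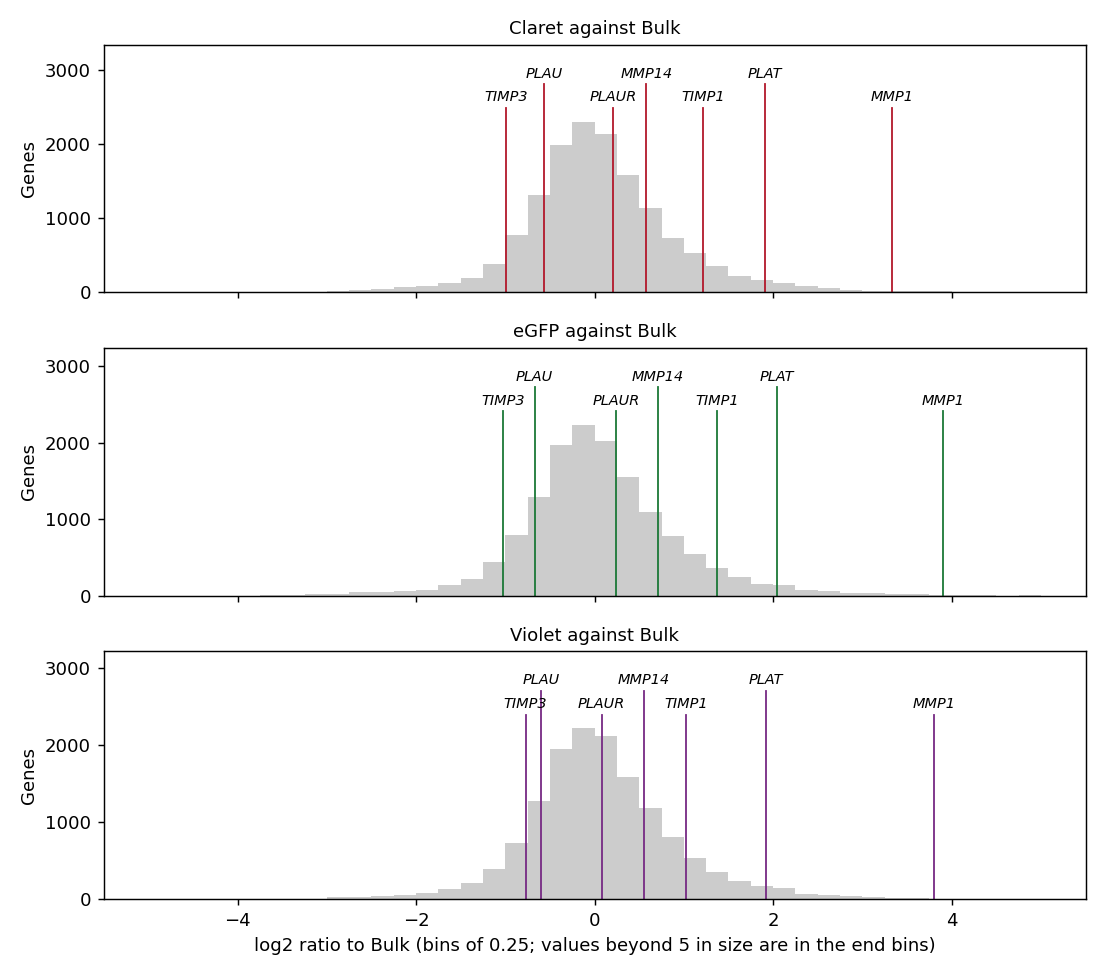
Distribution of log2 ratios to Bulk over the 14585 genes kept (grey bars, genes per bin of 0.25), with lines at the 7 genes of the set that were kept, 1 panel per slow-cycling library. MMP1 lies at the far right tail in each panel, PLAT and TIMP1 on the right flank, PLAUR near the centre, and PLAU and TIMP3 on the left.

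Other genes of matrix proteolysis were taken from lists set by function. Of 19 other metalloproteinases, 7 were kept, and 5, 6 and 5 of them were at least 2-fold higher in Claret, eGFP and Violet. Of all genes kept, 11.3%, 12.0% and 11.7% were higher. In each library 0 of the 7 were lower, against 6.72%, 7.64% and 6.92% of all genes kept. The list medians were 1.14, 1.52 and 1.51. MMP17, a lipid-anchored metalloproteinase, gave 35 reads for Bulk, then 170 (Claret), 146 (eGFP) and 146 (Violet), and rose by 2.11 (1.64 to 2.74), 1.99 and 2.0. MMP11 (stromelysin-3) rose by 1.43, 1.48 and 1.51 from 71 reads in Bulk, and MMP15 (MT2-MMP) by 1.13, 1.52 and 1.23 from 131. MMP13 (collagenase-3), which like MMP1 met the filter only through the slow-cycling libraries, gave 7 reads for Bulk, then 20 (Claret), 31 (eGFP) and 32 (Violet), with log2 ratios of 1.20 (0.11 to 2.89), 1.87 and 1.92. MMP19 was higher by 2-fold in Claret and eGFP (1.14 and 1.26) and was at 0.70 in Violet, and MMP24 was higher by 2-fold in eGFP and Violet (1.75 and 1.67) and was at 0.77 in Claret. The difference of MMP24 between Claret and eGFP, -0.98, was short of 2-fold. MMP16 was at -0.13, -0.32 and -0.11. These kept genes had low levels, at most 3.97 FPKM on average (MMP15), so that MMP14 stayed the leading metalloproteinase transcript.

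Of 14 other inhibitors, 10 were kept, and 2, 3 and 2 were at least 2-fold higher in Claret, eGFP and Violet. Of all genes kept, 11.3%, 12.0% and 11.7% were higher. In each library 0 of the 10 were lower, against 6.72%, 7.64% and 6.92% of all genes kept. The list medians were 0.35, 0.43 and 0.55. TIMP4 rose by 1.22, 1.04 and 1.24 from 224 reads in Bulk, and the cystatin gene CST6 by 1.90, 2.46 and 2.24 from 11 reads. CST6 too was under 1 CPM in Bulk and met the filter only through the slow-cycling libraries. SERPINE2 was at 0.85, 0.97 and 0.89, and TFPI2 at 0.07, 0.10 and -0.08. SPINT2, an inhibitor of serine proteases, was at 0.99, 1.02 and 0.89. The cathepsin inhibitor gene CST3 was at 0.26, 0.27 and 0.36, and CSTB at -0.14, -0.11 and -0.11.

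Of 9 genes of the plasminogen system and its surface partners, 7 were kept, with 0, 1 and 1 at least 2-fold higher. Of all genes kept, 11.3%, 12.0% and 11.7% were higher. In each library 0 of the 7 were lower, against 6.72%, 7.64% and 6.92% of all genes kept. The list medians were 0.27, 0.30 and 0.05. The gene past 2-fold was LRP1, the endocytic receptor that clears protease-inhibitor complexes, with 2146 reads for Bulk, then 4604, 5097 and 5316 (log2 ratios 0.99, 1.23 and 1.31). ANXA2 and S100A10, which together bind plasminogen and tPA at the cell surface, stayed within 0.11 of Bulk in size. ENO1 was at -0.47, -0.53 and -0.51, BSG at 0.34, 0.30 and 0.34, and FURIN, which activates pro-MMP14, at 0.27, 0.42 and 0.33. PLG, the gene of plasminogen itself, had 0 reads in all 4 libraries.

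Of 22 other matrix proteases, 17 were kept, with 1, 2 and 0 at least 2-fold higher. Of all genes kept, 11.3%, 12.0% and 11.7% were higher. In each library 0 of the 17 were lower, against 6.72%, 7.64% and 6.92% of all genes kept. The list medians were 0.11, 0.19 and 0.41. The lysosomal cysteine protease gene CTSL was at 1.10, 1.04 and 0.95, and CTSB at 0.79, 0.88 and 0.72. CTSD was at 0.22, 0.22 and 0.41, and CTSZ at -0.29, -0.28 and -0.17. ADAM8, named after its values were seen because it was past 2-fold in eGFP, was at 0.87, 1.03 and 0.93, and ADAM15 and ADAM9 were between -0.04 and 0.36.

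**Figure D5:**
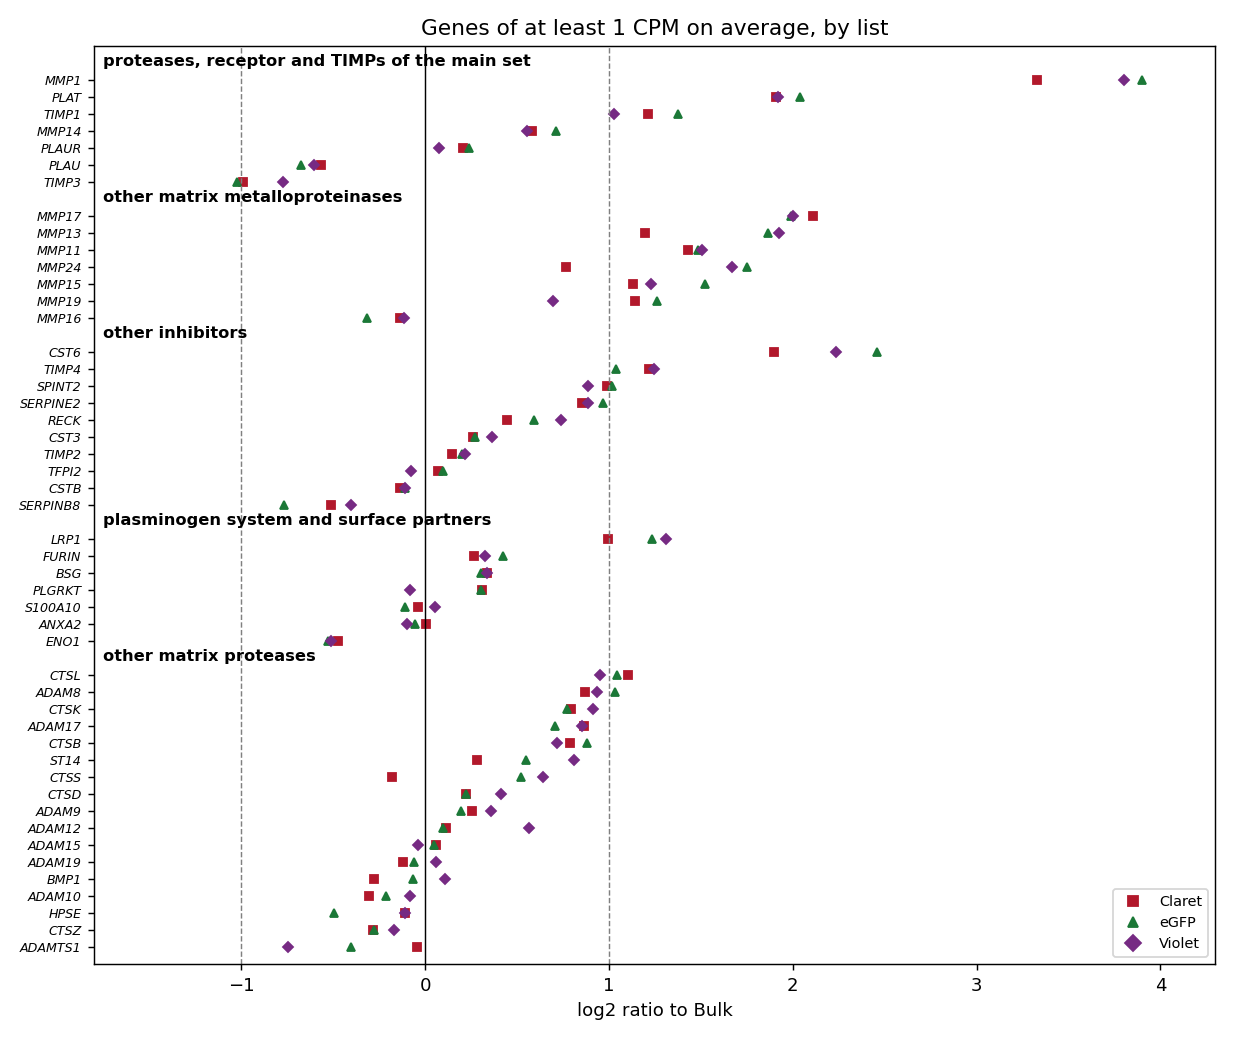
Log2 ratio to Bulk in Claret, eGFP and Violet of the genes kept in the main set and in the 4 further lists, ordered within each list by their mean (dashed lines at 2-fold). Most other metalloproteinases lie to the right of 1, while the plasminogen partners and other proteases lie mostly between -1 and 1.

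Of the AP-1 subunit genes, 2 of 7 were at least 2-fold higher in each library and 1, FOSL2 in eGFP, was at least 2-fold lower. Of all genes kept, 11.3%, 12.0% and 11.7% were higher in Claret, eGFP and Violet, and 7.64% were lower in eGFP. The higher AP-1 subunit genes were JUNB by 1.94, 2.15 and 1.71 and JUND by 1.22, 1.27 and 1.04. The other subunits stood at 0.50, 0.67 and 0.13 for FOS, 0.74, 0.88 and 0.15 for FOSB, 0.43, 0.62 and 0.43 for JUN, -0.24, -0.31 and -0.45 for FOSL1, and -0.95, -1.04 and -0.80 for FOSL2.

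For each gene kept, the 2 protein-coding genes of at least 10 CPM with the most similar profile were found by the root-mean-square difference of centred log2 CPM over the 4 libraries, among 9755 genes. With only 4 libraries many genes lie close to any profile. MMP1 stood nearest to PTGS2 (cyclooxygenase-2, difference 0.134), which gave 105 reads for Bulk, then 1153 (Claret), 1381 (eGFP) and 1207 (Violet). IL1A (the cytokine interleukin-1 alpha) followed at 0.193, with 18 reads for Bulk, then 208, 229 and 205. The nearest genes of the other 6 lay at 0.00398 to 0.0282: PAQR5 and YIPF2 for TIMP1, C1RL and FBXO32 for PLAT, ACTR1B and NR1H2 for PLAUR, C11orf80 and PACS2 for MMP14, USF1 and RHBDD3 for PLAU, and ICK and SLF2 for TIMP3.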

How the data were processed

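The authors deposited whole-number read counts per gene, without normalization, for 1 library in each of 4 groups. The submitters' processing notes name HISAT2 2.0.5 and featureCounts 1.5.0-p3; their settings, strandedness and the treatment of multi-mapping reads are not given in the sources used here. The authors also deposited FPKM, and these values come from the counts by 1 factor per library once gene length is taken out. Gene coordinates coincide with GENCODE 29 (GRCh38) for all 58735 genes.

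Genes with a mean of at least 1 CPM were kept, libraries were scaled by TMM in edgeR 4.0.16 (R 4.3.3), and log2 ratios used a prior count of 2. A single library per group leaves edgeR nothing to estimate the spread from, so the calls rest on size alone: a gene counts as higher or lower where its log2 ratio is at least 1 in size. The exact interval of a ratio of reads covers counting error only, because no group has a replicate library. Reads carry no molecular identifiers, so this is the counting error of reads and not of molecules. Levels of different genes were compared only as FPKM.

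Named genes are the 9 genes, list genes past 2-fold in all 3 slow-cycling libraries, up to 6 further genes per list by mean FPKM, and the 2 nearest genes in profile. 1 gene of the inhibitor list is not reported here and is left out of its counts. The set, the lists and the rules were chosen with earlier results of these data known. Alternatives were the scaling, including DESeq2 1.42.0 size factors, the prior count, the filter, FPKM, the treatment field, a GC correction and, as a further criterion, an exact binomial test on reads, which compares 2 libraries and not the conditions.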

Additional observations from a re-analysis of the deposited data

Results flagged for a closer look

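MMP3 was above Bulk in Claret and eGFP and below Bulk in Violet, and its log2 ratios to Bulk differed by up to 0.91 between slow-cycling libraries. These rest on 8 reads for Bulk, 16 for Claret, 11 for eGFP and 7 for Violet, and the 3 intervals included 0. The log2 ratio of Claret to Violet was 0.91 (-0.28 to 2.61), and this interval included 0 too. Beyond counting error, the difference between libraries was not tested.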

How the results depend on the processing

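No paired analysis was possible because each group holds 1 library, and for the same reason no library could be left out. With groups from the titles, 8 alternatives were tried: library-size scaling, DESeq2 size factors, prior counts of 0.5 and 10, no filter, a filter at 10 CPM, log2(FPKM + 1) and a GC correction. The sign of each gene with reads in Bulk was the same in all 8, and MMP1 and PLAT were past 2-fold in all 3 slow-cycling libraries, except that MMP1 was not kept at 10 CPM. For MMP3 the GC correction could not change the sign, because it was applied only to genes kept. TIMP3 in eGFP was not past 2-fold, so that the count of lower genes was 0, with library-size scaling, at 10 CPM and on the FPKM scale. Of all genes kept in those settings, 7.23%, 6.36% and 4.97% were lower in eGFP. The count of higher genes was 2 in each library at 10 CPM, 2 in Violet on the FPKM scale and after the GC correction, and without a filter 3 in Claret, 4 in eGFP and 4 in Violet. MMP1 ranged from 1.55 to 3.60 in Claret, 1.99 to 4.18 in eGFP and 1.89 to 4.08 in Violet. The median log2 ratio in Claret, eGFP and Violet was 0.65, 0.78 and 0.63 at 10 CPM, 0.22, 0.21 and 0.21 on the FPKM scale, and 0.49, 0.60 and 0.46 after the GC correction. With a prior count of 10 it was 0.47 in Claret and 0.59 in eGFP. Without a filter MMP9 was lower by 2-fold in Claret than in eGFP (1 gene, against 6.64% of genes) and than in Violet (1 gene, against 7.45%). This rests on 0 reads against 5 and 6 and on the prior count, and the interval against eGFP included 0 (up to 0.03). Adding the binomial criterion, with a Benjamini-Hochberg adjusted p under 0.05, can only lower a count. It left each count of genes against Bulk as it was, and it removed few of all genes kept that were past 2-fold there. Between slow-cycling libraries the counts were already 0, so this criterion could not change them.

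Groups from the treatment field changed most values, since the library titled Violet then stands as Bulk. Measured against that library, the Claret group had 3 lower genes (11.7% of all genes kept) and 0 higher ones (6.92%). For eGFP both counts were 0, where 0.329% of all genes kept were higher and 0.727% lower. For Violet both counts were 0 too, where the shares were 0.377% and 0.912%. The medians were -0.55 in Claret, 0.027 in eGFP and 0.12 in Violet. In Claret, MMP1 was at -3.80, PLAT at -1.92 and TIMP1 at -1.03, and in eGFP MMP1 was at -0.47 and PLAT at -0.013. Between slow-cycling libraries, 3 genes were lower in Claret than in eGFP (11.3% of all genes kept). In Claret against Violet, 1 was higher and 3 lower (7.64% and 12.0%). Depth limits MMP3, MMP9 and, through 6 reads in Bulk, the size of the MMP1 ratio. Without replicates the spread between cultures is unknown.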

Other observations

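Some of the protease genes under 1 CPM on average gave more reads in the slow-cycling libraries than in Bulk. For MMP10 (stromelysin-2) the Bulk library gave 2 reads, Claret 13, eGFP 15 and Violet 23. For MMP28 Bulk gave 0 reads, Claret 13, eGFP 6 and Violet 8. With Bulk set at 3 reads, the MMP28 ratio was 4.02-fold in Claret, 1.98-fold in eGFP and 2.67-fold in Violet. Here the 13, 6 and 8 reads were taken as exact. The log2 interval for 0 reads in Bulk began above 0 in each library, lowest at 0.22 for eGFP. For MMP25 Bulk gave 6 reads, Claret 13, eGFP 15 and Violet 22. DPP4 went from 2 reads to between 9 and 15, and ADAMTS4 from 1 read to between 4 and 8. MMP2, the gelatinase that MT1-MMP activates, had 0 to 2 reads, and MMP7, MMP8 and MMP12 had 0 to 3. MMP21 went the other way, with 5 reads for Bulk, 4 for Claret, 0 for eGFP and 2 for Violet, and MMP23B was mixed, with 3, 1, 0 and 5. MMP20, MMP26 and MMP27 had 0 reads in all 4 libraries. The genes of this paragraph were chosen after their values were seen.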
